A study of Homo sapiens with 6 samples.

Results

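RS4;11, a B-cell acute lymphoblastic leukemia line with a KMT2A-AFF1 fusion, was compared with and without knockdown of NSD2, using 2 of the 6 samples of an ATAC-seq series and 4 of its 12 peak lists. The control sample (NT) carried a non-targeting shRNA and the knockdown sample (sh2) an shRNA against NSD2, and each came with 2 lists, read here as 2 libraries and called NT 1, NT 2, sh2 1 and sh2 2. The lists were merged on chromosomes 1 to 22 into 94559 regions, of which 9083 held a peak in both NT lists and in no sh2 list (NT-only) and 855 held one in both sh2 lists and in no NT list (sh2-only). The series is titled for an NSD2 mutation in childhood leukemia, and the labels do not say whether RS4;11 carries it. They also do not say how far NSD2 fell, whether the 2 libraries of a sample came from separate cultures, or whether the lines are clonal, and only 1 shRNA was used. Each condition has 1 sample, so the conditions could not be tested against each other, and the values below are descriptions.

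ATAC-seq uses the Tn5 transposase to insert sequencing adapters where DNA is accessible, so that a peak marks a promoter, an enhancer or another stretch of open chromatin. NSD2 adds methyl groups to lysine 36 of histone H3, a mark that NSD2 lays down in broad domains within genes and between them. In B-lineage leukemia, raised NSD2 activity is known to widen these domains and to lower the repressive mark on lysine 27 of histone H3. Genes could not be assigned to regions, because no annotation or sequence of the build of the lists (hg19, used for all coordinates below) was used here, and for the same reason the B-cell identity of the line was not checked against marker genes.

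Fewer peaks were called in the knockdown libraries. NT 1 had 81527 peaks on the autosomes, NT 2 had 71463, sh2 1 had 59502 and sh2 2 had 61253. The lists covered 34.8 and 31.1 Mb with NT and 25.4 and 26.1 Mb with sh2. Both sh2 libraries lay below both NT libraries, and the NT libraries also differed from each other. Peak width did not follow this order, with medians of 342 and 347 bp in NT 1 and NT 2 and 343 and 342 bp in sh2 1 and sh2 2. The background level of the peak caller, read from the steps of the deposited peak values, was 2.30 in NT 1, 2.01 in NT 2, 1.82 in sh2 1 and 1.90 in sh2 2. It therefore stood in the same order over the 4 libraries as the number of peaks. If fragments were extended alike it stands for relative depth, and its part in the results below was not tested.

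The largest class was open throughout. All 4 lists held a peak at 45787 regions, or 48.4% of the total, and 9476 regions were open in 3 lists. Another 24658 were open in 1 list only, from 2828 in sh2 1 to 12831 in NT 1. Among regions open in exactly 2 lists, the NT-only class was the most frequent with 9.61% of all regions, while the sh2-only class held 0.904%. The 4 crossed classes, which pair 1 NT list with 1 sh2 list, held 1854 regions (1.96%, NT 1 with sh2 2), 1445 (1.53%, NT 1 with sh2 1), 757 (0.801%, NT 2 with sh2 2) and 644 (0.681%, NT 2 with sh2 1). The NT-only class was thus larger than each crossed class, and the sh2-only class lay within their range. The sh2-only share of the 9938 changed regions was 8.60% (exact 95% binomial interval 8.06 to 9.17, counting error only).

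**Figure D1:**
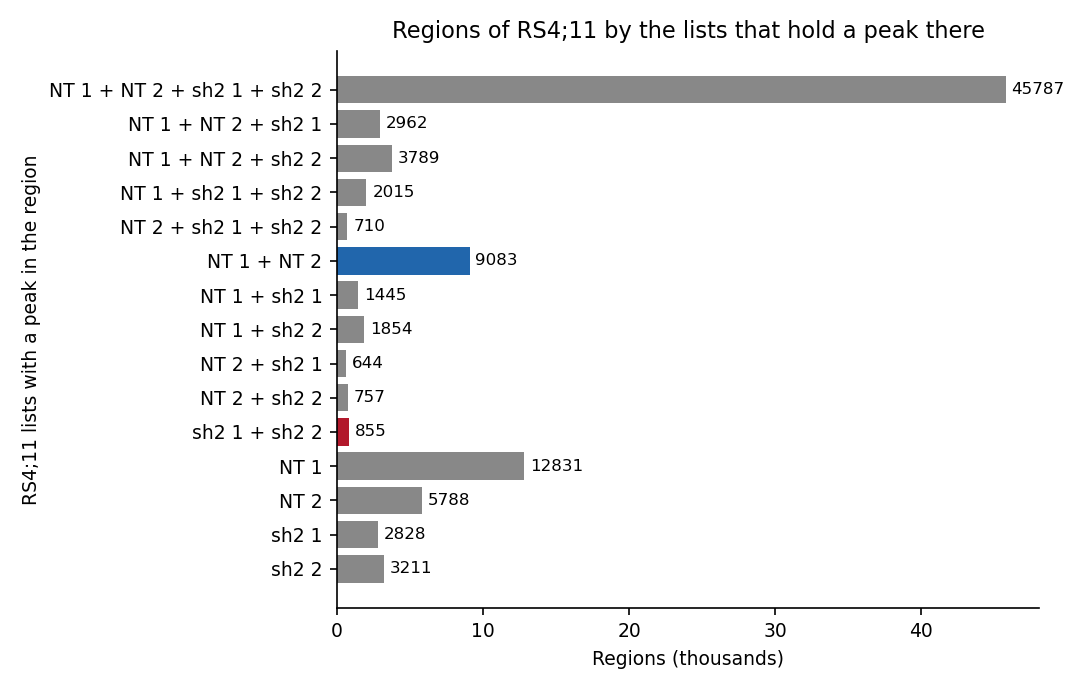
Number of regions (in units of 1000, horizontal axis) for each combination of the 4 RS4;11 lists that hold a peak there (vertical axis). Blue marks the 9083 NT-only regions and red the 855 sh2-only regions, with the 45787 regions open in all 4 lists at the top and the crossed pairs of lists, at 644 to 1854, between the coloured bars.

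Both classes grew when a library was left out, since fewer lists then had to meet the rule. The NT-only count was 15171 without NT 1, 22157 without NT 2, 12077 without sh2 1 and 12913 without sh2 2. The sh2-only count was 2904, 1595, 4115 and 3735 in the same order. NT-only regions were the larger class each time. With lists of equal length, made of the 59502 peaks of highest value in each list, 4998 regions (6.34%) were NT-only and 3048 (3.86%) sh2-only, beside crossed classes of 848 (1.08%), 965 (1.22%), 1086 (1.38%) and 824 (1.04%). The sh2-only class was then larger than each crossed class too. A region counted as sh2-only in these shortened lists can still hold a weaker NT peak that was cut from the list.

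NT-only regions were not all weak peaks. The value that the authors deposited with each peak, read as a fold enrichment over local background, is not comparable between libraries, so each peak was given its percentile within its own list. NT-only regions had a median percentile of 35.0 in NT 1 and 28.2 in NT 2, and sh2-only regions one of 18.3 in sh2 1 and 20.1 in sh2 2. This order turned when NT 1 was left out, with medians of the mean percentile of 20.2 for NT-only and 24.9 for sh2-only regions. At regions open in all 4 lists the medians were 70.5, 66.5, 61.2 and 62.2 in NT 1, NT 2, sh2 1 and sh2 2. The classes differed most in their upper end. The mean percentile over the 2 lists reached 58.9 at the 90th percentile of NT-only regions and 96.2 at its highest. For sh2-only regions these values were 37.9 and 68.0, and for the crossed classes the highest were 50.3 to 67.5.

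The share of one-sided regions was then followed across the range of peak values. Of the regions open in both NT lists, 39.9% lacked an sh2 peak when the mean percentile was under 10, 18.6% at 40 to 50, 6.29% at 60 to 70, 3.36% at 70 to 80, 1.28% at 80 to 90 and 0.178% at 90 to 100. Of the regions open in both sh2 lists, 9.63% lacked an NT peak below percentile 10, 0.887% at 40 to 50 and 0.0342% at 60 to 70, and none did above 70. The crossed pairs ran like the sh2 pair, from 11.0% to 18.6% below percentile 10 down to at most 0.0754% at 60 to 70, with no region above 70. Above percentile 70, one-sided regions were thus found for the NT pair alone among these 6 pairs.

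**Figure D2:**
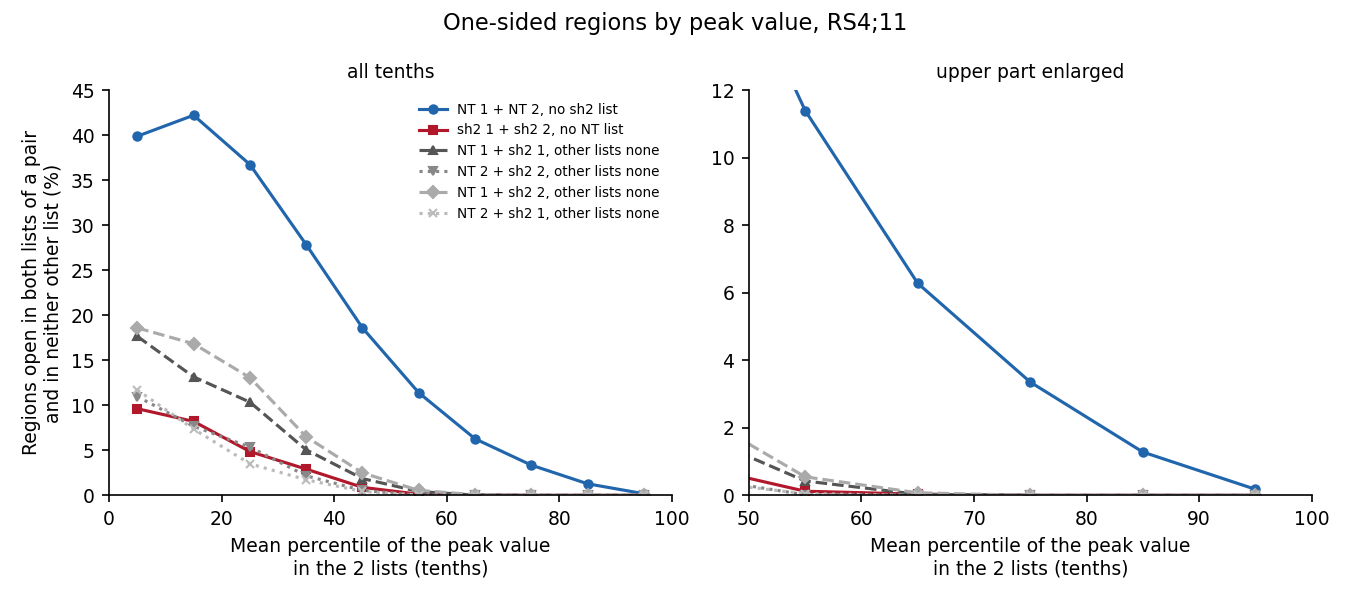
Percent of regions open in both lists of a pair and in neither other list (vertical axis) against the mean percentile of the peak value in that pair, in steps of 10 (horizontal axis); the right panel enlarges percentiles 50 to 100. The NT pair (blue) still shows 6.29% at 60 to 70 and 1.28% at 80 to 90, where the sh2 pair (red) and the 4 crossed pairs (grey) lie at 0.0754% or less.

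At a mean percentile of 60 or more, 830 of 29781 regions open in both NT lists were NT-only (2.79%), and 2 of 23438 regions open in both sh2 lists were sh2-only (0.00853%). The crossed pairs gave 2 of 26069 (0.00767%), 1 of 25067 (0.00399%), 5 of 26536 (0.0188%) and 0 of 24679. When strength was taken as a place among the 30000 peaks of highest value in both lists of a pair, 575 of 26090 regions were NT-only (2.20%), 6 of 25917 sh2-only and 0 to 4 crossed. Lists of equal length gave 838 NT-only and 7 sh2-only regions at a percentile of 60 or more. The percentiles there were still those of the full lists, so the limit of 60 was not adjusted to list length. The NT-only number rose to 1349 without NT 2 and to 1374 without sh2 2, and was 748 without NT 1 and 1190 without sh2 1. The sh2-only number was 28 without NT 1, 5 without NT 2, 7 without sh2 1 and 9 without sh2 2. In each of these settings strong one-sided regions belonged mostly to NT.

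Strong NT-only regions were found on 21 of the 22 autosomes. Chromosomes 2 and 4 had over 100 each, chromosome 3 had 73, chromosome 8 had 43, chromosome 19 had 2 and chromosome 22 had none. These counts depend on how many regions a chromosome holds. Both NT lists had a peak at 5721 regions on chromosome 2, 4279 on chromosome 4, 1376 on chromosome 19 and 876 on chromosome 22. Shares of strong regions per chromosome were not compared. The median deposited values of strong NT-only regions were 9.81 in NT 1 and 8.95 in NT 2, against 5.15 and 4.98 for the other 8253 NT-only regions. The strong regions were also wider, with a median of 440 bp against 317 bp.

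The 8 NT-only regions of highest mean percentile are given as examples. They were chosen for their NT values, and no sh2 value is known where no peak was called, so the size of a loss is not measured. The first, at chr13:86192625-86193064, had deposited values of 18.5 in NT 1 and 16.4 in NT 2, and the nearest sh2 peak was 28.6 kb away. A 653 bp region at chr8:119189715-119190367 had 18.4 and 16.2. The region at chr9:25351798-25352402 had 18.0 and 16.3, with an sh2 peak at 1.46 kb and the nearest region open in all 4 lists 612 kb away. These 3 regions exceeded the value of more than 94% of the peaks in each NT list and had no peak in either sh2 list.

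The fourth, at chr4:158029780-158030433, had 18.0 and 15.2 in NT 1 and NT 2. All 8 lists of SEM and RCH, the other leukemia lines of the series, also held a peak there, with 12.6 and 12.8 in SEM NT, 6.36 and 7.18 in SEM sh2, 10.0 and 13.2 in RCH NT and 8.01 and 9.95 in RCH sh2. The peak there was thus absent after knockdown only in RS4;11 among these 3 lines, which did not hold for all 8 regions. At chr5:25955457-25955901 the values were 14.7 and 16.2, and the region lay 242 kb from the nearest region open in all 4 lists. The region at chr1:96392603-96393018 had 15.6 and 14.6, and that at chr1:171221589-171222067 had 15.5 and 14.5. The eighth, at chr13:61890663-61891129, had 15.5 and 14.1 and no peak in SEM. Of these 8 regions, all were open in at least 2 of the 8 lists of SEM and RCH.

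The strongest gained regions ranked below the strongest lost ones. The sh2-only region of highest mean percentile, at chr1:2920404-2920795, had 9.15 in sh2 1 and 9.45 in sh2 2, with the nearest NT peak 166 kb away. Next came chr1:29456451-29456829, with 8.97 and 8.12 and an NT peak at 4.85 kb, and chr9:140639894-140640261, with 8.52 and 7.24. The gained region at chr19:6551926-6552312, with 8.17 and 7.24 in the sh2 libraries, was open in all 8 lists of SEM and RCH. The others were at chr2:85779278-85779524, at chr12:133186868-133187269, and at chr10:15944635-15944941 and chr10:74397223-74397519, with mean percentiles from 50.5 to 56.5. The highest gained region ranked below the eighth lost one, at a mean percentile of 68.0 against 91.3. These are the extremes of classes of 855 and 9083 regions, and a larger class reaches higher extremes by its size.

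Changed regions were narrow, and so were other regions not open in all 4 lists. The median width was 326 bp (quartiles 273 and 420) for NT-only regions, 281 bp (249 and 338) for sh2-only regions, 273 to 280 bp for the crossed classes and 552 bp (399 and 771) for regions open in all 4 lists. Regions open in 3 lists were close to the NT-only class, at 333 bp (285 and 429), and those open in 1 list had a median of 219 bp. The order of the changed classes turned when an NT library was left out, with 240 bp for NT-only and 287 bp for sh2-only regions without NT 1, and 244 and 284 bp without NT 2. Regions of at least 500 bp made up 12.6% of the NT-only, 3.27% of the sh2-only and 58.1% of the shared class, and 14.2% of regions open in 3 lists. Part of this gap goes with strength, since stronger peaks are wider, and merging 4 lists widens a shared region. Widths of the NT peaks alone, within bands of 20 percentiles, still differed. All NT peaks of a merged region were added up there, so merging was not fully removed. At percentiles 40 to 60 the median was 309 bp for 2159 NT-only regions and 362.5 bp for 10237 shared regions, and at 80 to 100 it was 441 bp for 110 and 644 bp for 14569. In the sh2 lists at 20 to 40 it was 239 bp for 369 sh2-only regions and 290.5 bp for 7994 shared ones. In both directions, regions open in one condition were narrower than those open in all 4 lists within such a band. Strength was not matched more closely than that.

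The widest lost regions measured 1244 bp at chr4:167760280-167761523, 1177 bp at chr3:175108190-175109366 and 1086 bp at chr13:54186221-54187306. The last was also strong, with deposited values of 15.6 in NT 1 and 11.9 in NT 2. The widest gained ones measured 771 bp at chr19:2726527-2727297, 698 bp at chr1:32666662-32667359 and 680 bp at chr2:240161840-240162519. Their mean percentiles were 13.8 to 23.8, and those on chromosomes 1 and 2 had an NT peak at 0.159 and 0.116 kb.

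Few lost regions were near misses of the overlap rule. Of the NT-only regions, 1.12% had an sh2 peak within 100 bp and 899 (9.90%) within 1 kb, and the median gap to the nearest sh2 peak was 20.4 kb. Of the sh2-only regions, 35 (4.09%) had an NT peak within 100 bp and 200 (23.4%) within 1 kb, with a median gap of 4.95 kb. Gained peaks thus lay closer to peaks of the other condition than lost ones, where the longer NT lists also offer more peaks to be near.

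Lost regions lay far from other open chromatin. To the closest region with a peak in all 4 RS4;11 lists, the median distance was 32.8 kb for NT-only regions (quartiles 10.8 and 82.7) and 8.40 kb for sh2-only regions (2.91 and 19.3), against 7.98 to 11.1 kb for the crossed classes. More than 100 kb separated 20.1% of NT-only, 2.22% of sh2-only and 4.35% to 6.47% of crossed regions from such a region. The 830 strong NT-only regions lay farther than the rest of the class, at a median of 54.7 kb against 30.8 kb. Regions open in NT 1 alone or in any other single list were also remote, with a median of 23.4 kb.

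Distance and strength were then combined, with a measure of distance that did not use RS4;11. Each region was placed by its gap to the closest region with a peak in all 8 lists of SEM and RCH, which marks chromatin open in these lines with either shRNA. Of 22109 regions open in both NT lists and overlapping such shared chromatin, 0.877% were NT-only. The share rose to 11.3% within 10 kb, 16.6% at 10 to 50 kb, 25.0% at 50 to 100 kb, 36.3% at 100 to 500 kb and 46.0% of 1082 regions beyond 500 kb. The share also rose with distance within bands of 20 percentiles, and strength was not matched more closely than that. At percentiles 60 to 80 the NT-only share went from 0.311% of 6433 overlapping regions to 24.5% of 253 beyond 500 kb, and at 80 to 100 from 0.0546% of 10979 to 9.40% of 149. At 20 to 40 it went from 4.49% to 72.3%. Below percentile 20 the last step was not a rise, with 73.8% at 100 to 500 kb and 72.6% beyond 500 kb.

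No such gradient was seen in the reverse direction. Of regions open in both sh2 lists, the sh2-only share was 0.220% where they overlapped shared chromatin, 3.79% within 10 kb, 3.30% at 10 to 50 kb, 1.62% at 100 to 500 kb and 0.477% beyond 500 kb. The largest crossed class, NT 1 with sh2 2, stayed between 5.05% and 5.90% in every band beyond the overlapping one, at 0.314%. Below percentile 20 that crossed class also rose with distance, from 6.83% to 34.9%, and NT 1 with sh2 1 rose from 5.29% to 41.3%, where the NT-only share went from 13.4% to 72.6%. At percentiles 40 to 60 these crossed classes stood at 0.541% and 2.35% beyond 500 kb, against 46.7% for NT-only regions. Over all strengths, NT 1 with sh2 1 reached 6.19% beyond 500 kb, and the crossed classes with NT 2 stood at 1.38% and 1.79% there. When a library was left out, the NT-only share was 1.75% to 1.87% for overlapping regions and 44.8% to 54.8% beyond 100 kb, against 0.877% and 37.3% with all 4, so the overlapping share moved by over 1.5 times without any one of the 4 libraries. With lists of equal length it was 0.432% and 28.8%.

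**Figure D3:**
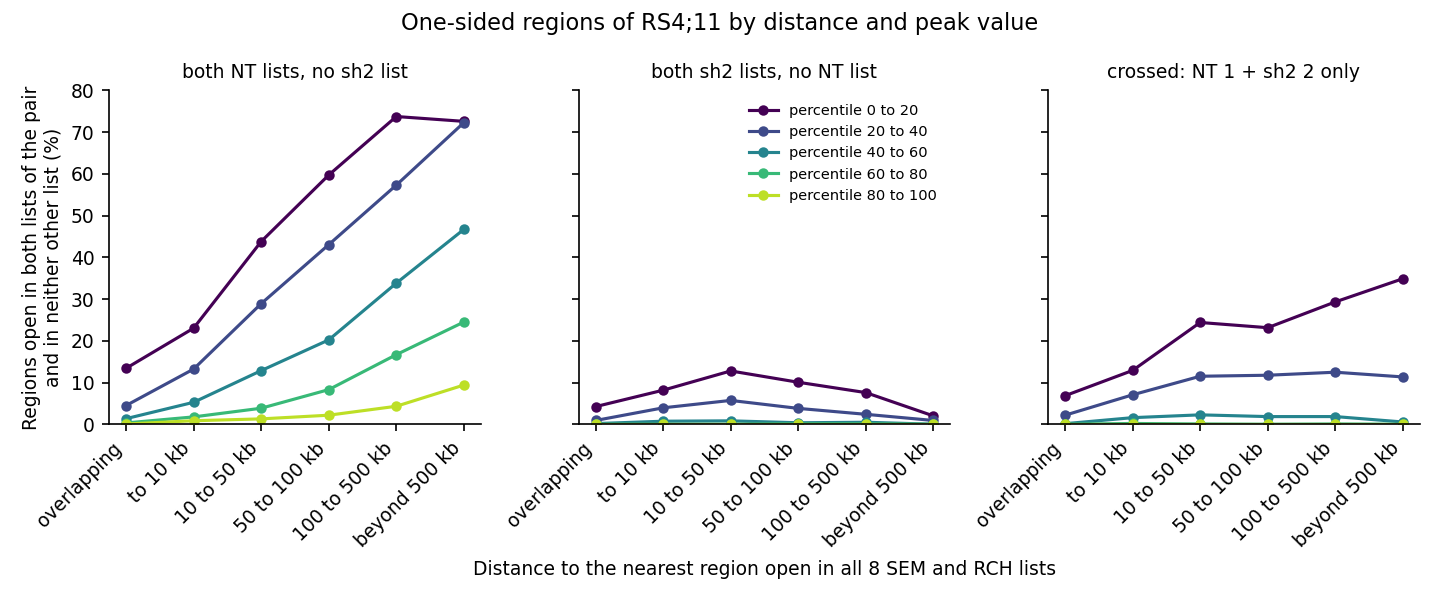
Percent of regions open in both lists of a pair and in neither other list (vertical axis) by distance to the closest chromatin shared by all 8 SEM and RCH lists (horizontal axis), with 1 line per 20 percentiles of peak value. The left panel (NT pair) climbs from overlapping to remote regions on every line, to 46.7% at percentiles 40 to 60 beyond 500 kb, while the middle panel (sh2 pair) and the right panel (NT 1 with sh2 2) stay at 34.9% or less, and at 2.25% or less above percentile 40.

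The regions open in all 4 lists give a second view, since the rule for the classes did not sort them. Their peak values were ranked within each library over the same 45787 regions, from 0 to 100, which requires a peak in every list and so leaves out the lost regions. Ranks of the libraries of a sample were closer (Spearman's rho over regions 0.909 for NT 1 and NT 2, 0.893 for sh2 1 and sh2 2) than ranks of NT and sh2 libraries (0.830 to 0.839). Regions are not independent replicates, and these values describe the lists only.

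Retained regions remote from shared chromatin ranked lower after knockdown. Beyond 500 kb, 406 regions had median ranks of 51.1 in NT 1, 50.5 in NT 2, 34.6 in sh2 1 and 34.6 in sh2 2. At 100 to 500 kb, 4380 regions had 46.7, 45.8, 36.2 and 35.9. At 50 to 100 kb the medians were 41.1 and 39.0 with NT and 35.3 and 35.6 with sh2. In these 3 bands both sh2 libraries lay below both NT libraries. Where regions overlapped shared chromatin the order turned, with 67.7 and 69.0 in the NT libraries and 71.4 and 71.2 in the sh2 libraries over 21537 regions. The median change per region (sh2 minus NT) was 2.30 points there, 0.43 at 10 to 50 kb, -5.29 at 100 to 500 kb and -10.3 beyond 500 kb. The same difference between crossed pairs of libraries stayed between -0.46 and 1.27 points in all bands.

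**Figure D4:**
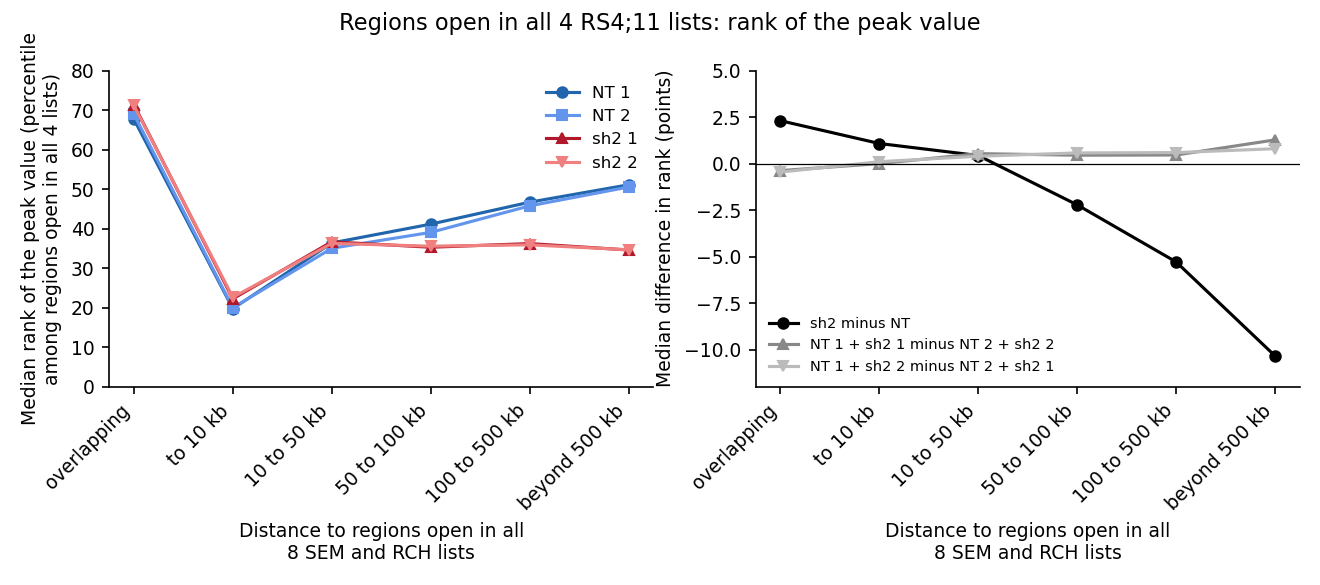
Left, median rank of the peak value among the 45787 regions open in all 4 lists (percentile, vertical axis) for each library by distance to the closest chromatin shared by all 8 SEM and RCH lists. Right, median difference in rank per region (points) for sh2 minus NT (black) and for the crossed pairs of libraries (grey): the black line falls from 2.30 to -10.3 while the grey lines stay between -0.46 and 1.27.

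Single retained regions fell in rank more often when remote. Over all retained regions, both sh2 ranks lay below both NT ranks at 9036 (19.7%) and above both at 11673 (25.5%). Beyond 100 kb of shared chromatin, 1837 of 4786 regions had both sh2 ranks below (38.4%) and 662 above (13.8%), and among overlapping regions 13.8% were below and 31.9% above. With NT 1 and sh2 1 set against NT 2 and sh2 2, ranks separated in either direction at 27.3% of all retained regions. This crossed share was 24.2% beyond 100 kb and 26.8% among overlapping regions. A fall of the mean rank by more than 20 points was found at 3294 retained regions and a rise of that size at 2329. Between the crossed pairs, 866 and 851 regions fell and 985 and 1036 rose by that much. Beyond 100 kb, 1060 regions fell and 167 rose. Ranks are relative, so a lower rank of remote regions and a higher rank of central ones cannot be told apart.

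By chromosome, losses were most frequent on chromosome 4 and gains on chromosome 19. Of the regions open in both NT lists, 21.9% of 4279 on chromosome 4 were NT-only, 18.0% on chromosome 13 and 17.9% on chromosome 8, against 6.06% on chromosome 17, 5.48% on chromosome 22 and 2.83% of 1376 on chromosome 19. Of the regions open in both sh2 lists, 4.77% were sh2-only on chromosome 19 and 3.08% on chromosome 17, against 0.783% on chromosome 4 and 0.75% on chromosome 13. Chromosome 19 had more sh2-only than NT-only regions, 69 against 39, and the other 21 autosomes had fewer. Chromosome 19 is the most gene-dense human chromosome, and chromosomes 4 and 13 are gene-poor. When a library was left out, the NT-only share was 27.2% to 38.2% on chromosome 4, over 1.5 times the full value without NT 2, and 5.77% to 8.0% on chromosome 19, over 1.5 times without any one of the 4.

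Retained regions rose most in rank on the chromosomes with the fewest losses, while the order of the others differed between these measures. On chromosome 19 their median ranks were 38.2 in NT 1, 41.1 in NT 2, 51.8 in sh2 1 and 51.6 in sh2 2, and on chromosome 17 they were 38.2, 41.1, 49.1 and 49.5. On chromosome 4 they were 55.2, 54.9, 48.4 and 48.7. The median change per region was 6.78 points on chromosome 19, 5.78 on chromosome 17, 4.17 on chromosome 22 and -0.70 on chromosome 4, and the crossed differences ranged from -1.33 to 0.81 points over all autosomes. Across the 22 autosomes, the NT-only share fell with the number of shared SEM and RCH regions per Mb of the span covered by peaks (Pearson's r -0.84, Spearman's rho -0.85), while the sh2-only share (0.92 and 0.73) and the change in rank (0.87 and 0.71) rose with it. The small crossed differences also followed that density (Pearson's r -0.74 and -0.82), so the correlation alone does not set NT against sh2 apart. Chromosomes share their libraries and are not replicates.

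**Figure D5:**
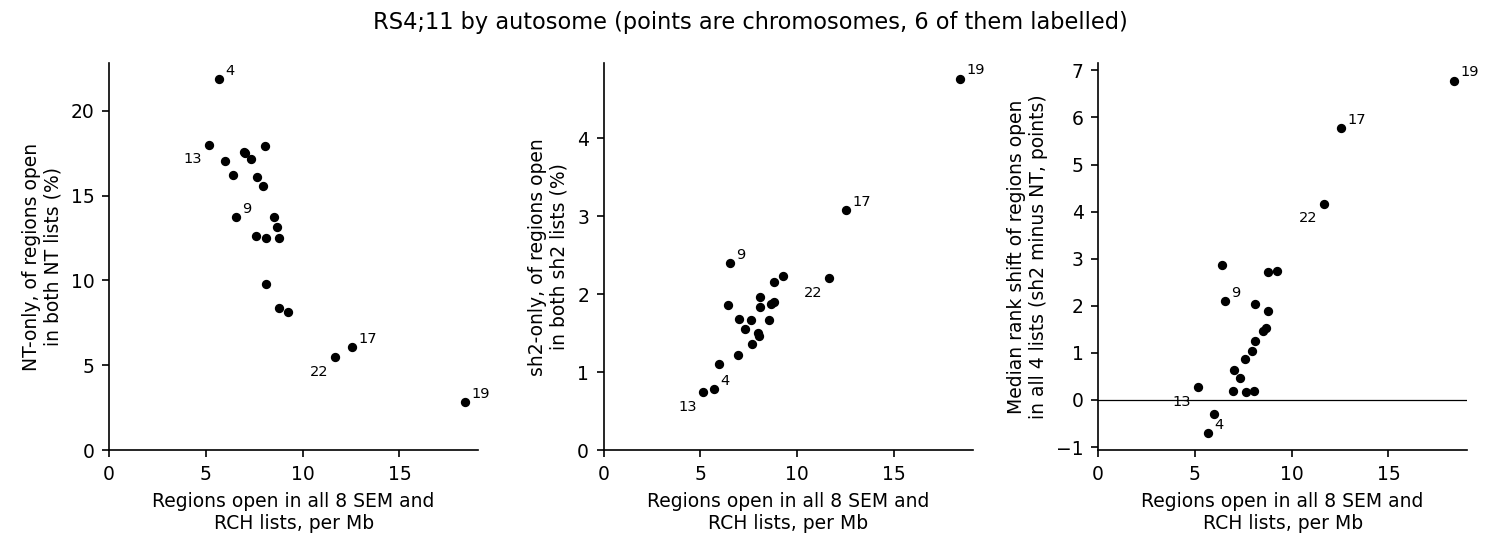
Each point is 1 autosome of RS4;11, placed by how many regions shared by all 8 SEM and RCH lists it holds per Mb (horizontal axis). From left to right the vertical axis is the NT-only share of regions open in both NT lists (%), the sh2-only share of regions open in both sh2 lists (%) and the median change in rank of retained regions (points); chromosome 19 lies at 2.83%, 4.77% and 6.78, and chromosome 4 at 21.9%, 0.783% and -0.70.

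Within chromosomes, losses were spread unevenly. In 551 windows of 5 Mb with at least 20 regions open in both NT lists, the NT-only share had a median of 14.1% (quartiles 7.06% and 22.2%). The highest shares were 56.4% on chromosome 4 at 60 to 65 Mb (31 of 55 regions), 51.5% on chromosome 4 at 30 to 35 Mb (34 of 66) and 49.2% on chromosome 2 at 80 to 85 Mb (32 of 65). No region was lost in 9 windows, such as chromosome 3 at 45 to 50 Mb with 117 regions open in both NT lists, and chromosome 19 at 35 to 40 Mb with 137. Most sh2-only regions in a window, 15, were found on chromosome 19 at 0 to 5 Mb, beside 3 NT-only ones, and on chromosome 9 at 135 to 140 Mb, beside 2.

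Lost regions had close neighbours of their own class, and so did regions open in 3 lists. The median gap from an NT-only region to the next was 69.3 kb, against 526 kb for sh2-only and 377 to 1140 kb for crossed regions, which are fewer. Divided by the mean spacing that the size of each class gives, the median gap was 0.225 for NT-only, 0.161 for sh2-only, 0.251 to 0.296 for crossed regions and 0.176 for regions open in all 4 lists. On this scale both changed classes were more tightly grouped than the crossed ones. Another member of the same class lay within 10 kb of 12.4% of NT-only and 3.74% of sh2-only regions, a share that depends on class size. The 9476 regions open in 3 lists, a class of like size to NT-only, had 12.2% within 10 kb and a median gap of 77.1 kb.

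Runs of NT-only regions without any region open in all 4 lists between them held 5065 of the 9083 (55.8%), and 177 runs had at least 5 members. The longest, with 19 members, spanned 2656 kb at chr2:80757394-83413540, inside the window named above. The next had 13 members over 1261 kb at chr4:96733485-97994901 and 12 members over 481 kb at chr8:112297404-112778874. Of sh2-only regions, 68 (7.95%) stood in runs, all of 2 members, the shortest over 1.17 kb at chr2:97534706-97535871, 1.45 kb at chr8:28227756-28229209 and 2.17 kb at chr12:55385175-55387343. The number of members in a run depends on the size of the class, and runs of the crossed classes were not counted.

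The lists of SEM and RCH, which the class rule did not use, show how far these regions are open elsewhere. At least 1 of the 8 lists had a peak at 58.8% of NT-only regions (exact 95% binomial interval 57.8 to 59.8, counting error only, as for the next), 70.2% of sh2-only regions (67.0 to 73.2) and 94.4% of regions open in all 4 RS4;11 lists, and all 8 had one at 1.46%, 2.81% and 46.3%. The order of the changed classes turned when an sh2 library was left out, with 63.3% of NT-only and 49.3% of sh2-only regions open in at least 1 list without sh2 1, and 64.1% and 48.8% without sh2 2. NT-only regions were open in 24.3% and 25.6% of cases in the SEM NT lists, 25.4% and 24.8% in the SEM sh2 lists, 25.5% and 27.9% in the RCH NT lists, and 9.30% and 7.72% in the RCH sh2 lists. Regions open in all 4 RS4;11 lists were open in 71.9% and 76.3% of cases in the RCH NT lists and in 62.9% and 59.7% in the RCH sh2 lists, and in 75.8% and 76.3% in the SEM NT lists and 82.9% and 81.8% in the SEM sh2 lists. The RCH sh2 lists are shorter than the NT lists (43043 and 40506 peaks against 54740 and 55364) and the SEM sh2 lists longer (62120 and 60148 against 52301 and 53475). Between the NT and sh2 lists, the share of NT-only regions thus fell by a larger factor than that of shared regions in RCH, and stayed level in SEM where that of shared regions was higher with sh2.

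Strong NT-only regions were more widely open than the rest of the class. The SEM NT lists had a peak at 44.5% and 46.4% of the 830, and the RCH NT lists at 43.7% and 48.6%, against 22.3% to 25.8% of the other NT-only regions. In the SEM sh2 lists both shares were 35.8%, and in the RCH sh2 lists they were 14.0% and 11.6%. For these strong regions the sh2 lists of both other lines lay below their NT lists. Of sh2-only regions, 33.0% and 33.3% were open in the SEM NT lists, 38.9% and 35.3% in SEM sh2, 20.5% and 23.2% in RCH NT and 22.8% and 22.9% in RCH sh2. Each line has 1 sample per condition, so the differences between lists of NT and sh2 have no test.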

How the data were processed

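ATAC-seq was done on RS4;11 with NT or sh2, and the lists of SEM and RCH were used only to place RS4;11 regions and for comparison. Per the submitters' processing notes, Bowtie2 and MACS2 were used with the build hg19. The sources used here do not give tool versions, settings, treatment of duplicates, shifting for the transposase or sequencing depth. Each list deposited by the authors holds 1 value per peak, read as a fold enrichment (a ratio to the caller's background) from its steps, on which 15.0% to 25.0% of the RS4;11 values lay (tolerance 0.0002). The background level is 1 over the step minus 1. Read depth is unknown, so precision per region is not given.

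Peaks were merged where they overlapped by at least 1 bp, and a list counted as open with an overlap of 1 bp. Chromosomes X and Y were left out. Percentiles were taken within each full list, also where lists were shortened or cut by value, and a region takes the highest of its peaks. Named regions are the 8 per class of highest mean percentile, the 3 widest and the 3 runs with most members. The members and measures were chosen with earlier results of these data known. The limit of percentile 60, the distance bands, the ranks of retained regions and the windows were chosen after the values had been seen. Merging and classes were tested on simulated lists and against bedtools 2.31.1. Tables were made with pandas 2.3.3 and numpy 2.4.6 in Python 3.11.15, intervals with scipy 1.17.1 and plots with matplotlib 3.10.9. Alternatives were lists of equal length, values above the pooled median, coverage of 50% of a region, 1 kb without a peak of the other condition, chromosome X added, and each library left out.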

Additional observations from a re-analysis of the deposited data

Results flagged for a closer look

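Regions open in all 4 lists of a line and more than 100 kb from regions shared by the other lines moved in opposite directions in RS4;11 and SEM. In RS4;11 their median change in rank (sh2 minus NT) was -5.67 points, and both sh2 libraries (36.2 and 35.9) lay below both NT libraries (47.1 and 46.0). In SEM it was 2.88 points, and both sh2 libraries (41.8 and 42.8) lay above both NT libraries (39.2 and 39.8). In RCH it was -5.66 points, close to RS4;11, with both sh2 libraries (32.7 and 32.7) below both NT libraries (43.2 and 40.7). Beyond 500 kb alone the change was -1.98 points in RCH (89 regions), against -10.3 in RS4;11 (406 regions). The sh2 lists were shorter than the NT lists in RS4;11 and RCH and longer in SEM. With lists of equal length the change in RS4;11 was -6.52 points. SEM and RCH were not recomputed in that way, so the part of list length in the contrast between the lines was not tested. The differences between the lines were not tested either.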

How the results depend on the processing

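No paired analysis was possible because the labels give no replicate numbers and each condition has 1 sample. Adding chromosome X changed no value beyond its spread. With lists of equal length, NT-only and sh2-only counts were 4998 and 3048, the sh2-only share 37.9%, the largest crossed class 1086, widths 344 and 303 bp, percentiles 43.2 and 17.9, distances to regions open in all lists 40.6 and 4.99 kb, spacings 117.7 and 120.8 kb, and shares open in other lines 65.2% and 78.2%. There were 7 strong sh2-only regions, the rank change of remote retained regions was -6.52, and the NT-only share of regions open in the NT lists was 0.432% overlapping shared chromatin, 28.8% beyond 100 kb, 1.23% on chromosome 19 and 15.1% on chromosome 4. With values above the pooled median, in the same order, these were 4258 NT-only regions, 12.6%, 816, 452.5 and 390 bp, 65.1 and 57.0, 60.3 and 21.8 kb, 160.1 and 724.1 kb, 85.0% and 92.7%, 3133 strong NT-only and 185 strong sh2-only regions, -7.41, 2.39%, 40.3% and, on chromosome 4, 20.5%. With coverage of 50% of a region, widths were 348 and 291 bp, the sh2-only percentile 21.3, distances 38.8 and 9.25 kb, the NT-only spacing 63.0 kb, the NT-only share open in other lines 63.1%, strong regions 1651 and 11, the rank change -4.96, and the NT-only shares 1.77%, 43.5%, 4.03% and 26.0%. Without peaks of the other condition within 1 kb, the sh2-only share was 7.41%, the NT-only width 331 bp, the sh2-only percentile 23.5, distances 38.0 and 10.6 kb, spacings 73.5 and 778.8 kb, and the NT-only shares 0.538%, 35.6%, 1.89% and 20.6%. Crossed classes were not computed in that setting, nor with a library left out. With lists of equal length and with values above the pooled median, percentiles were those of the full lists. The percentiles and numbers of strong regions in those settings are therefore not corrected for list length. Among the 30000 highest peaks there were 6 sh2-only regions, a setting chosen after seeing the data.

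With 1 library left out, NT-only and sh2-only counts ranged from 12077 to 22157 and from 1595 to 4115, the sh2-only share from 6.72% to 25.4%, widths from 240 to 328 and from 215 to 287 bp, percentiles from 20.2 to 33.1 and from 12.9 to 24.9, distances from 23.7 to 30.0 and from 6.60 to 11.1 kb, spacings from 32.0 to 58.2 and from 141.2 to 277.7 kb, and shares open in other lines from 44.6% to 64.1% and from 48.8% to 76.7%. Strong regions ranged from 748 to 1374 and from 5 to 28, the rank change from -5.93 to -4.92, and the NT-only shares from 1.75% to 1.87%, 44.8% to 54.8%, 5.77% to 8.0% and 27.2% to 38.2%. Without NT 1 the NT-only percentile, 20.2, fell below the sh2-only one, 24.9, and the orders of width (without NT 1 or NT 2) and of the share open in other lines (without sh2 1 or sh2 2) turned as well. In each of these settings NT-only regions stayed the larger class and the farther one from regions open in all lists, and remote retained regions ranked lower with sh2. Of the 11 named NT-only regions 9 kept their class with values above the pooled median and 11 in the other settings, and of the 11 named sh2-only regions 6 did so there, 9 with the 1 kb rule, 10 with 50% coverage and 11 otherwise. Depth is unknown, so weak regions called in 1 condition may lie below detection in the other.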
